A study of Mus musculus with 31 samples.

Results

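Chromatin accessibility was read around 10 genes of extracellular matrix turnover in mouse fibroblasts: 6 matrix metalloproteinases (Mmp2, Mmp3, Mmp9, Mmp10, Mmp13 and Mmp14), the related secreted protease Adamts1 and 3 tissue inhibitors of metalloproteinases (Timp1, Timp2 and Timp3). The genes were taken by name, as 10 of 21938 protein-coding genes of the GENCODE M21 annotation and not by a threshold on a measured value. They were, however, chosen with earlier results of these data known. For each gene, the accessible regions within 1 kb of any of its transcription start sites (TSSs), elsewhere in the gene, and within 25 kb of the gene were read from a list of ATAC-seq peaks. This gave 59 of the 63456 peaks in the list.

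Parental NIH-3T3 cells, an established line of mouse embryonic fibroblasts, gave the 1 library used here. They carry no transcription factor (TF) transgene. The labels of this library list no doxycycline, whereas the methods describe a treatment of NIH-3T3 cells with 500 ng per ml for 48 h before ATAC-seq without naming exceptions, so whether these cells received it is not settled. ATAC-seq cuts and tags DNA with the transposase Tn5, which reaches DNA that nucleosomes leave free, so that fragments pile up over accessible chromatin. Chromatin of 50000 cells was treated with 0.5 µM Tn5 for 30 min and the fragments were, per the labels, amplified by 12 cycles of PCR. A further 30 samples of the study, of which 26 overexpress 1 of 13 TFs and 4 express rtTA3G alone, were not analysed here. No replicate error can be given and no test was made, so every value below describes this single library.

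Matrix metalloproteinases are zinc-dependent proteases that cut collagens, proteoglycans and other proteins outside the cell. Most are secreted as inactive precursors, some stay anchored in the plasma membrane, and TIMPs block them by binding the active site. In fibroblasts, Mmp3, Mmp9, Mmp10 and Mmp13 are known as inducible genes that respond to cytokines, growth factors and phorbol esters, in part through the AP-1 factors (FOS and JUN), which recognise TGACTCA. Mmp2 and Timp2 are known for more steady expression. An ATAC-seq peak shows that DNA was accessible, and the RNA of these genes was not measured in the library.

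3 quantities are given for a peak. The deposited fold enrichment is a ratio, with the number of fragments piled up over the summit divided by the number expected there after 1 was added to each. The peak-calling settings in the paper name no control library, so the expected number is not an independent measure of background. The −log10 q is the significance that the peak caller gave to the summit, and 1.3 is the lowest value in the list. The number of fragments over the summit was solved from the deposited fold enrichment and −log10 p, and gives the depth behind the peak. Over all peaks the median was 29 fragments and the lowest value 10, against a most common expected pileup of 2.81. These values cover counting within the library only.

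The labelled cell type was compared with marker genes. A peak lay within 1 kb of a TSS for 10 of 10 fibroblast markers, among them Col1a1, Col1a2 and Fn1. The same was true of 1 of 4 epithelial markers (Krt8, fold 3.25), of 1 of 4 blood markers (Spi1, fold 3.22) and of 4 of 4 endothelial markers (Cdh5, Pecam1, Vwf and Tek, with best folds of 12.8, 8.4, 6.33 and 3.58). The best folds of the fibroblast markers ran from 3.41 (Thy1, 12 fragments) and 3.65 (Prrx1) to 10.5 (Fn1). The lowest of them were thus close to those of Krt8 and Spi1. Of all protein-coding genes, 53.7% had a peak within 1 kb of a TSS. The nearest peaks of Krt8 and Spi1 lay 929 and 591 bp from a TSS, and that of Thy1 862 bp, so no peak covered these starts. The part of the peaks near TSSs of non-fibroblast markers in the results below was not tested.

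The sequences just before the start sites of 6 of the 10 genes are printed here as examples. They are 120 bases of the reference that end at the base before the RefSeq start, written 5′ to 3′ in the direction of transcription (RefSeq, GRCm38.p6, the same build as mm10). Capitals mark TGACTCA or its reverse complement TGAGTCA, the AP-1 consensus, and TATAAA, the core of the TATA box. The first 3 belong to the inducible proteases on chromosome 9, which had no peak at the TSS, and the last 3 to genes whose start was accessible. All 6 stretches lie upstream of the RefSeq first exon. The stretches of Mmp2, Mmp9, Timp2 and Timp3 are not printed.
Mmp3, chr9:7445702-7445821, plus strand: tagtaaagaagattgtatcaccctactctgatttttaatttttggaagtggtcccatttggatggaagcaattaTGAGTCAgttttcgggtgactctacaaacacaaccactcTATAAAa
Mmp10, chr9:7502222-7502341, plus strand: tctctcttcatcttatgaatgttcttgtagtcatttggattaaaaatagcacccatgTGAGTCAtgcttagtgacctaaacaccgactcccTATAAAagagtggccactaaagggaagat
Mmp13, chr9:7272394-7272513, plus strand: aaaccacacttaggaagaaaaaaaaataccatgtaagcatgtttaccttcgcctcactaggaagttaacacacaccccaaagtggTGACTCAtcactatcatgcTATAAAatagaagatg
Mmp14, chr14:54431478-54431597, plus strand: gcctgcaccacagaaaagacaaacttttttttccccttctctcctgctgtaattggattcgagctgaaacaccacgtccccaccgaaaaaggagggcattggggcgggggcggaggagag
Adamts1, chr16:85803114-85803233, minus strand: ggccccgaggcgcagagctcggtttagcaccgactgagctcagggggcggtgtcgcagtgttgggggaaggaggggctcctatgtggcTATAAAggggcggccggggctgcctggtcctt
Timp1, chrX:20870046-20870165, plus strand: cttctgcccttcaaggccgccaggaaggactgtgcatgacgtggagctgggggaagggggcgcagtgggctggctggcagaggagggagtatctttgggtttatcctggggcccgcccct

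A further set shows AP-1 letters that did lie under a peak. They span 50 bases to either side of the summit of 4 peaks away from the start sites or, for Timp1, just upstream of one. They are written in the direction of transcription of the gene from the same reference, with capitals on the AP-1 consensus in either orientation.
Mmp14 intron 1, chr14:54435337-54435437, plus strand: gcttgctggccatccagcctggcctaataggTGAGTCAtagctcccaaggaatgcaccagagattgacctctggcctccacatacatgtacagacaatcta
Adamts1 upstream, chr16:85827211-85827311, minus strand: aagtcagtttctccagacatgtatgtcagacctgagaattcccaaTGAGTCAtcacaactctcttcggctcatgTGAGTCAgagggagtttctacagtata
Timp1 upstream, chrX:20869362-20869462, plus strand: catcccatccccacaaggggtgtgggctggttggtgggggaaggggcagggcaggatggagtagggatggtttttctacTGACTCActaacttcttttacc
Timp2 upstream, chr11:118365276-118365376, minus strand: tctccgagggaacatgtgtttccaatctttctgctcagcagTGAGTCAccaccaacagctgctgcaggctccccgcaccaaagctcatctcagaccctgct

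The start sites of the 10 genes fell into 2 classes. Mmp2, Mmp14, Adamts1, Timp1, Timp2 and Timp3 had a peak within 1 kb of a TSS, and Mmp3, Mmp9, Mmp10 and Mmp13 had none. The count of 6 of 10 lay near the background, since 11788 of 21938 protein-coding genes (53.7%) had such a peak. All 3 inhibitors were among the genes with a peak, and so were the membrane-anchored protease and the gelatinase Mmp2. The collagenase, both stromelysins and the gelatinase Mmp9 were not. The same 6 genes had a peak when the TSS base itself had to be covered, when 5 kb was allowed, when non-coding transcripts were left out and under 3 stricter peak thresholds.

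**Figure D1:**
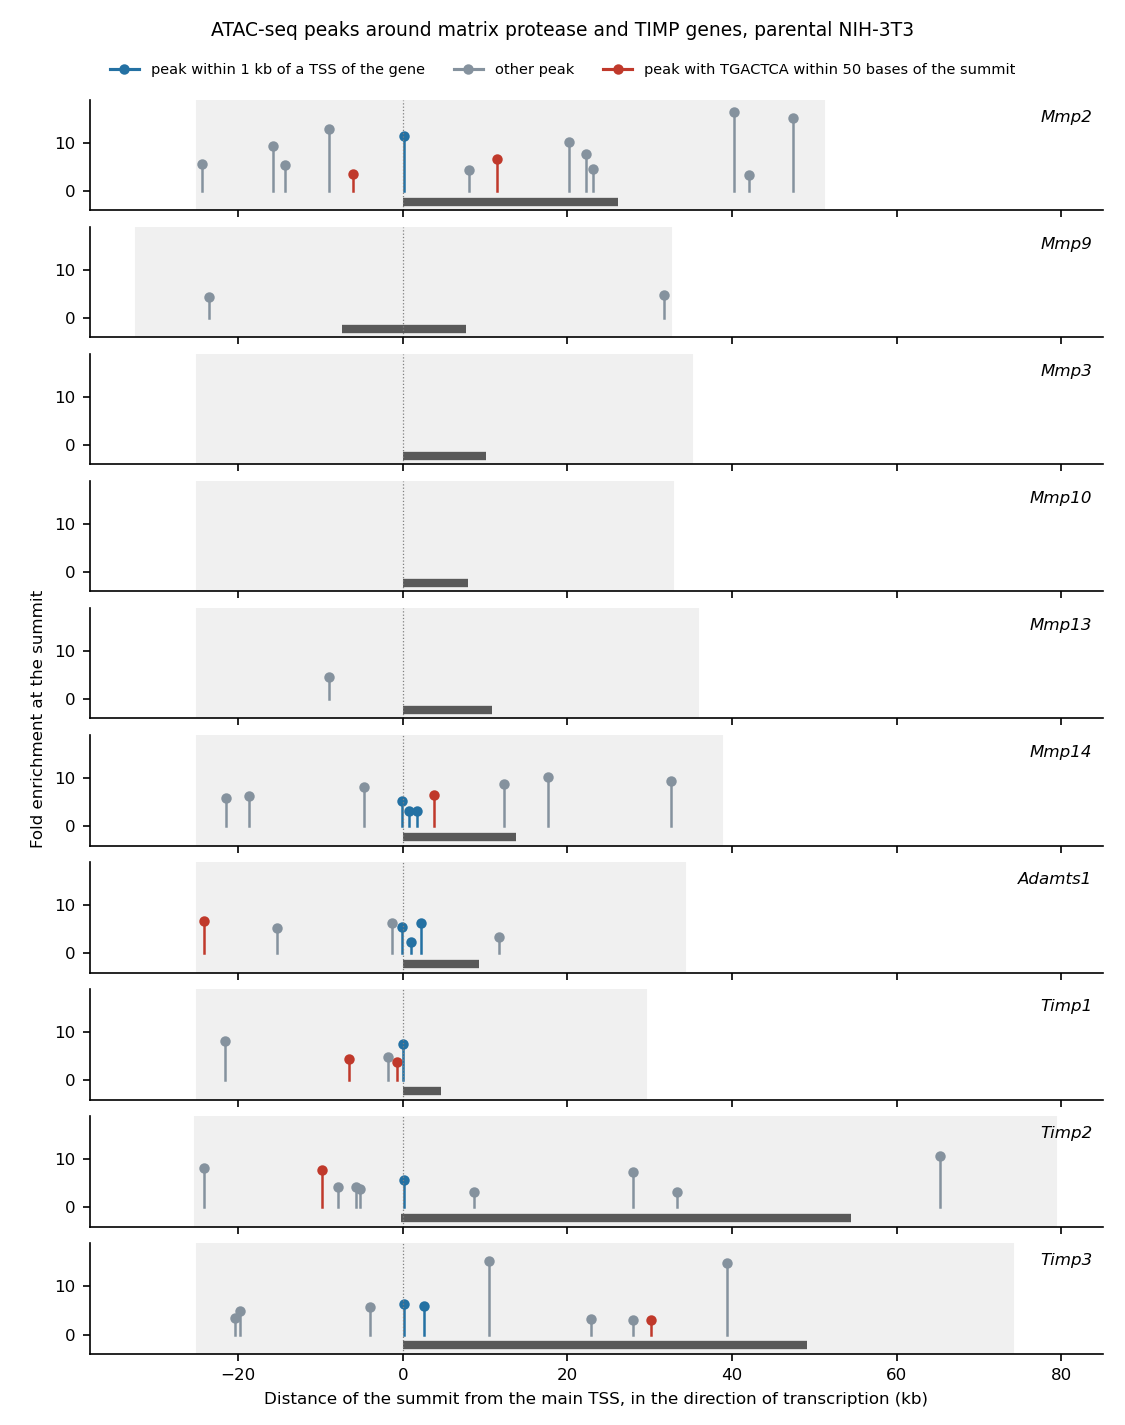
Peaks around each of the 10 genes, with the distance of the summit from the main TSS in kb on the x axis and the fold enrichment on the y axis. Dark bars are the genes and grey shading the window of 25 kb to either side, and a peak with TGACTCA near its summit is red wherever it lies. Mmp2 carried 14 peaks, Mmp3 and Mmp10 none, and the highest fold enrichments (16.5 at Mmp2, 15.4 at Timp3) lay away from the start sites.

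The windows of these genes were rich in peaks as a set, with a wide spread between members. Of the 59 peaks, 12 lay within 1 kb of a TSS of the gene, 15 elsewhere in the gene and 32 in the flanks, and no peak was counted for more than 1 gene. Mmp2 had 14 peaks, Mmp14, Timp2 and Timp3 10 each, Adamts1 7, Timp1 5, Mmp9 2 and Mmp13 1. Mmp3 and Mmp10 had 0 peaks, and 2 of 10 equals about the share of all protein-coding genes with none (4363 genes, 19.9%). The median over the 10 genes was 6 peaks, against a median of 3 (quartiles 1 and 6) over all protein-coding genes.

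**Figure D2:**
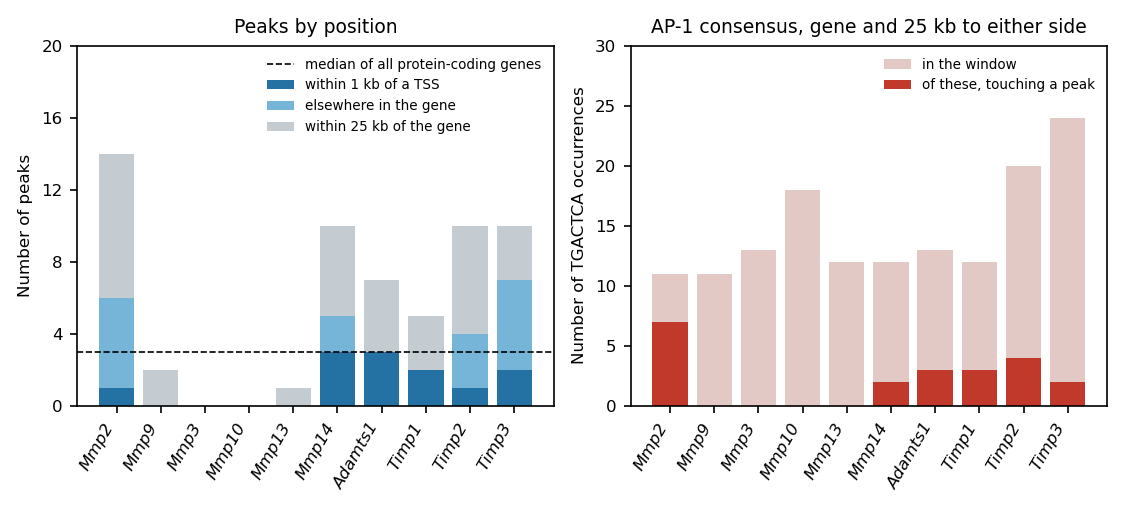
Left, number of peaks per gene by position, with the median of all protein-coding genes (3) as a dashed line. Right, number of TGACTCA occurrences on either strand in the same windows, and those touching a peak. Mmp2 had 7 of its 11 occurrences in peaks, and Mmp9, Mmp3, Mmp10 and Mmp13 had none in peaks.

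Long genes have longer windows, so the counts were also taken per length. Mmp2 had 18.4 peaks per 100 kb of window, more than 99.5% of protein-coding genes. Mmp14 had 15.7, more than 98.6% of them. Adamts1, Timp3, Timp2 and Timp1 had 11.8, 10.1, 9.55 and 9.16 peaks per 100 kb, all above the upper quartile of protein-coding genes (6.97). Mmp9 had 3.07 and Mmp13 1.64, below the median of 3.84. The merged windows held 697855 bp, of which 3.64% lay in peaks, against 1.01% of chromosomes 1 to 19, X and Y. The chromosome value includes DNA far from genes, and the share over the windows of all protein-coding genes was not computed. Of the 59 peaks, 9 also lay within 1 kb of a TSS of another gene, 6 of these at a protein-coding gene, so that these also mark neighbouring promoters.

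Mmp2 encodes gelatinase A, which cuts denatured collagen and type IV collagen. Its single TSS peak (chr8:92827131-92827768) had its summit 83 bases inside exon 1, with a fold of 11.4, a −log10 q of 48.5 and 68 fragments. Among the genes with a TSS peak, this fold lay at percentile 66.1 and the fragment number at percentile 54.9. Stronger peaks lay elsewhere in the window. Peak 12 (chr8:92867200-92867828), 40.3 kb downstream of the start, had the highest fold of the 59 peaks, 16.5, with 126 fragments and a −log10 q of 107. Peak 14, 47.5 kb downstream, had a fold of 15.2 with 86 fragments. Both summits lay within Lpcat2, the neighbouring gene for a phospholipid-modifying enzyme, so which gene they belong to cannot be told from position. Upstream of Mmp2, the strongest peak was 9.0 kb from the start, with a fold of 13 and 73 fragments.

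Inside Mmp2, 3 peaks clustered in introns 11 and 12. The first (chr8:92847137-92847768) had the most fragments of all 59 peaks, 152, with a fold of 10.2. The next in the same intron had 115 fragments and a fold of 7.73, and the third, in intron 12, had 67 fragments and a fold of 4.54. The expected pileup was 14 fragments at all 3 summits, the highest of the set, so that many fragments gave moderate folds. In introns 5 and 7, Mmp2 had peaks with folds of 4.47 and 6.58, the latter with TGACTCA 45 bases from the summit.

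Mmp14 encodes the membrane-type protease MT1-MMP, which activates the precursor of MMP2 at the cell surface together with TIMP2. It had 3 TSS peaks. The peak over the main start (chr14:54431319-54431939) had a fold of 5.25 with 56 fragments, and the 2 others, in intron 1 near further annotated starts, had folds of 3.17 and 3.29 with 28 fragments each. Further into intron 1, 3.8 kb from the start, a peak with a fold of 6.48 and 57 fragments carried the AP-1 letters printed above, 16 bases from its summit. The peak with the most fragments at Mmp14 (chr14:54443154-54444201) lay 12.3 kb from the start, past the end of the main transcript but within the annotated gene, with a fold of 8.79 and 86 fragments. The flanking peaks with the highest folds, 10.3 and 9.4, lay within 1 kb of starts of Gm24424 and of Gm10366 and Lrp10. A peak 4.8 kb upstream, with a fold of 8.24, lay at Mrpl52, a mitochondrial ribosomal protein gene, and 2 more lay at starts of Slc7a7, an amino acid transporter gene. These 5 flanking peaks were therefore all shared with starts of other genes.

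Adamts1 encodes a secreted protease that cuts proteoglycans such as versican and aggrecan. Its peaks were close together: 4 of the 7 had summits between 1.4 kb upstream and 2.2 kb downstream of the main start. The peak over the start (chr16:85802822-85803364) had a fold of 5.49 with 68 fragments. The peak in intron 1 (chr16:85800731-85801682) had a fold of 6.24 with 78 fragments, and the peak 1.4 kb upstream had almost the same values, 6.26 with 78 fragments. Between them, a peak in exon 1 had a fold of 2.4 with 29 fragments, the lowest fold of the 59 peaks. The expected pileup was 11.5 to 11.7 fragments at these 4 summits and 2.81 at the 3 distant peaks. The most distant, 24.1 kb upstream (chr16:85827120-85827382), had a fold of 6.83 from 25 fragments and held TGACTCA at 2 positions, 2 and 27 bases from the summit. A peak 15.2 kb upstream (fold 5.25, 19 fragments) lay at a start of 4930556C24Rik.

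The gelatinase Mmp9 had no peak within 1 kb of any of its 4 annotated starts. The nearest peak lay 16077 bp away (fold 4.4, 19 fragments), and the other peak of its window, 31.7 kb downstream of the main start in Slc12a5, had a fold of 4.75 with 20 fragments. Mmp13, collagenase 3, had 1 peak in its window (chr9:7263329-7263637), 9.0 kb upstream, with a fold of 4.73, a −log10 q of 6.57 and 17 fragments. Mmp3 and Mmp10, stromelysin 1 and 2, had no peak in their windows, and their nearest peaks were 126989 and 70459 bp from the TSS. All 3 of the peaks near Mmp9 and Mmp13 were below the median of the list in both fold (6.04) and fragments (29). The share of soft-masked (repeat) bases in the window was 66.7% at Mmp10, 49.1% at Mmp3 and 44.8% at Mmp13, against 36.4% over the genome, and 24.3% at Mmp9. Only uniquely mapped reads were kept, and the part of repeats in these low counts was not tested.

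Mmp3, Mmp10 and Mmp13 lie in 1 cluster of 10 matrix metalloproteinase genes on chromosome 9 (chr9:7272514-7699585). None of the 10 had a TSS peak: besides these 3, the cluster holds Mmp12, Mmp1b, Mmp1a, Mmp8, Mmp27, Mmp20 and Mmp7. Of the 10, 9 are annotated as protein-coding, and Mmp1a is annotated as a polymorphic pseudogene. Its 427 kb held 3 peaks, or 7.02 per Mb against 24 per Mb over the genome. The strongest of them, between Mmp27 and Mmp20 (chr9:7594920-7595554), had a fold of 15.4, a −log10 q of 53.7 and 61 fragments. The other 2 had folds of 3.41 and 4.73. None of the 3 lay in the window of a member. Soft-masked bases made up 47.8% of the cluster.

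The inhibitors differed in where their accessible DNA lay. Timp1, a secreted inhibitor known as a serum-inducible gene, is nested within Syn1 on the opposite strand of chromosome X. Its TSS peak (chrX:20869974-20870351) had a summit 42 bases upstream of the start, with a fold of 7.49 and 28 fragments, and a second one 754 bases upstream had a fold of 3.87 with 14 fragments and the AP-1 letters printed above. The fold lay at percentile 27.1 and the fragments at percentile 11.7 of genes with a TSS peak. TSS peaks on X had a median of 35 fragments and those on the autosomes 50. Of the other peaks, 1 lay 6.5 kb upstream at the start of Mir5617 with TGACTCA at its summit (fold 4.46, 16 fragments), and the strongest, 21.6 kb upstream with a fold of 8.14, lay at the start of Araf, a kinase gene. The next by fold, 1.9 kb upstream, had a fold of 4.86 with 20 fragments. The TSS peak of Syn1 itself (fold 9.19) was not among those of Timp1.

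Timp2 encodes an inhibitor that also takes part in the activation of MMP2. Its TSS peak (chr11:118355235-118355654) had a fold of 5.76 with 45 fragments. More fragments lay over a peak in intron 1, 27.9 kb from the start (fold 7.39, 91 fragments), and over a peak 9.8 kb upstream (chr11:118365150-118365527, fold 7.78, 105 fragments), which has TGACTCA 6 bases from its summit and is printed above. This upstream peak was 1 of 4 between 5.3 and 9.8 kb from the start. The 3 others had 50 to 57 fragments and folds of 3.82 to 4.36, over expected pileups of 12.3 to 12.7. A further peak with a fold of 3.25 and another with 3.21 lay in intron 1. Of the flanking peaks, the highest folds were 10.7 at the start of Usp36, a deubiquitinase gene, and 8.3 at 24.2 kb upstream. Cep295nl, which lies within Timp2, had no TSS peak.

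Timp3 encodes the inhibitor that binds to the extracellular matrix and also blocks ADAM and ADAMTS proteases. It is nested within Syn3 on the opposite strand, and Syn3 had no TSS peak. The peak over the start of Timp3 (chr10:86300315-86300990) had a fold of 6.37 with 54 fragments, and a second TSS peak, at an annotated start 2.5 kb downstream, had a fold of 5.91 with 47 fragments. Both were exceeded by 2 intronic peaks. In intron 1, 10.4 kb from the start (chr10:86310483-86311170), the fold was 15.4 with 128 fragments and a −log10 q of 104. In intron 2, 39.4 kb from the start (chr10:86339293-86340312), the fold was 14.8 with 132 fragments and a −log10 q of 105. The remaining intronic peaks, 3 in intron 1, had folds of 2.96 to 3.13 and 12 to 15 fragments, and the one with 15 held TGACTCA 42 bases from its summit. In the flanks, the highest folds were 5.74 and 5, at 4.0 and 19.7 kb upstream. Since the introns of Timp3 are also part of Syn3, these peaks lie in both genes.

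**Figure D3:**
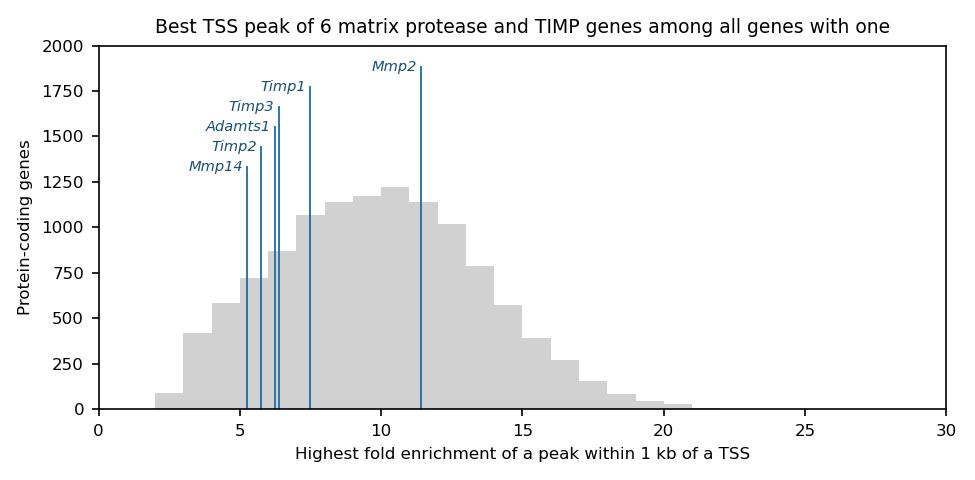
Grey bars count protein-coding genes by the highest fold enrichment of a peak within 1 kb of a TSS, in steps of 1, on an axis that ends at a fold of 30. Lines mark the 6 genes with such a peak. Mmp2 (11.4) lies above the median of 9.86, and Timp1, Timp3, Adamts1, Timp2 and Mmp14 (7.49 to 5.25) lie below it.

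Set side by side, the best TSS folds ran from 11.4 (Mmp2) through 7.49 (Timp1), 6.37 (Timp3), 6.24 (Adamts1) and 5.76 (Timp2) to 5.25 (Mmp14). The median of all 11788 protein-coding genes with a TSS peak was 9.86 (quartiles 7.27 and 12.4). The order by fragments was another one: Adamts1 78, Mmp2 68, Mmp14 56, Timp3 54, Timp2 45 and Timp1 28, against a median of 64 (quartiles 42 and 90). Adamts1 lay at percentile 17.2 by fold and 65.3 by fragments. Mmp14 lay at 10.4 by fold and 41.5 by fragments. The expected pileup under these 2 peaks was 11.7 and 9.86 fragments, and over all TSS peaks its median was 5.26. With 1 library, neighbouring values in either order cannot be said to differ.

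**Figure D4:**
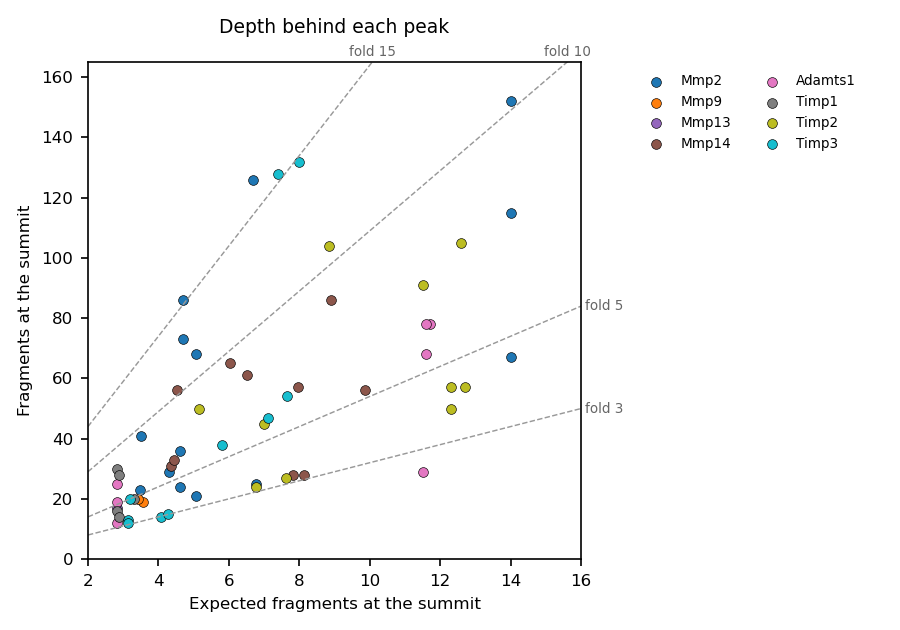
Each point is 1 of the 59 peaks, with the expected fragments at the summit on the x axis and the observed fragments on the y axis. Dashed lines join points of equal fold enrichment (3, 5, 10 and 15). Peaks of Adamts1, Timp2 and Mmp2 introns reach expected values of 11.5 to 14, so that peaks with 78 to 152 fragments there have folds of 6.24 to 10.2.

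The same held for the set as a whole. The 59 peaks had a median of 38 fragments, above the 29 of all peaks, while their median fold (5.74) lay below that of all peaks (6.04). The median expected pileup was 5.8 against 3.79. An expected pileup above 10 was found at 20.3% of the peaks (12 of 59) and at 3.95% of all peaks. For the 38 peaks more than 1 kb from any TSS (distal peaks), the median fold was 5.19 against 5.54 over 47192 distal peaks, and the median was 37 fragments against 25. Of the 5 peaks with the most fragments, 3 were also among the 5 with the highest fold.

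The AP-1 consensus was then read at the summits. TGACTCA, on either strand, lay within 50 bases of the summit of 6 of 38 distal peaks (15.8%, exact 95% interval 6.02 to 31.3%). Of all distal peaks of the library, 26.4% had it, a value within that interval, so a lower share at these genes was not detectable with 38 peaks. The 6 were 2 peaks of Mmp2 and 1 each of Mmp14, Adamts1, Timp2 and Timp3. Of the 12 TSS peaks, 1 had it (Timp1), and 8.15% of all TSS peaks did. None of the distal peaks with a fold above 10 had it within 50 bases of the summit: those were peaks of Mmp2 (4 peaks) and Timp3 (2 peaks). Of these, the Mmp2 peak 9.0 kb upstream held it 216 bases from the summit, and the Timp3 intron 2 peak 86 bases from it. The share among all distal peaks with a fold above 10 was not counted, so the absence at these summits has no background beside it and is not read as a result. The highest fold of a distal peak with the letters in the summit window was 7.78, at Timp2. Over all distal peaks the median fold was 6.31 with the letters and 5.3 without. At these genes it was 6.53 and 4.93.

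Other short motifs were counted in the same distal summit windows, both strands. The TEAD core GGAATG was in 6 of 38 (15.8%; 9.52% of all distal peaks), among them the Mmp14 intron 1 peak, where it lay 1 base from the summit, and the Timp2 intron 1 peak with 91 fragments. The ETS letters AGGAAG were in 6 (15.8%; 15.1%) and the RUNX letters TGTGGT in 2 (5.26%; 13.2%). The GC box GGGCGG and the cyclic AMP element TGACGTCA were in none (3.52% and 0.206%). These shares are descriptions of small numbers, and a match of letters is not a bound site.

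Seen from the motif, 146 occurrences of TGACTCA lay in the 10 windows and 21 of them (14.4%, exact 95% interval 9.13 to 21.1%) overlapped a peak. Over the genome the share was 6.22% (26934 of 433145). Since a larger part of these windows lies in peaks, both values were divided by the share of bases in peaks: the ratio was 3.95 in the windows and 6.14 over the genome. Mmp2 had 7 of 11 occurrences in peaks, Timp2 4 of 20, Adamts1 3 of 13, Timp1 3 of 12, Mmp14 2 of 12 and Timp3 2 of 24. The median distance of the 21 from the summit was 59 bases, and 9 lay within 50 bases of it. In the windows of Mmp9 (11 occurrences), Mmp3 (13), Mmp10 (18) and Mmp13 (12), none overlapped a peak by 1 base or more, and neither did any of the 90 occurrences in the chromosome 9 cluster.

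In the promoter window, from 250 bases before to 50 after the main GENCODE start, TGACTCA was present in 4 of 10 genes and in 4.51% of all protein-coding genes. The 4 were Mmp3, Mmp9, Mmp10 and Mmp13, the genes without a TSS peak. The occurrences began 46, 69, 73 and 35 bases before the start, on the minus strand except at Mmp13 (the RefSeq start of Mmp10, used for the printed sequence, lies 10 bases further upstream). It was found in none of the 6 genes with a TSS peak, which is near the share of all protein-coding genes with one (3.54%). Of the 4, Mmp3, Mmp10 and Mmp13 lie in the chromosome 9 cluster, where none of the 10 genes had a TSS peak. They are therefore not 3 independent cases. Among all protein-coding genes the letters were in 3.54% of promoter windows with a TSS peak and in 5.64% of those without. Put the other way, 417 of 989 genes with TGACTCA in the window (42.2%) had a TSS peak.

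TATAAA, counted on the coding strand 20 to 40 bases before the start, was in 2 of 10 genes (Mmp10 and Adamts1) and in 2.46% of all protein-coding genes. As the printed sequences show, Mmp3 and Mmp13 also had it, 7 and 16 bases before the annotated start and thus outside that range. Counted anywhere in the 120 bases before the start, a range chosen after these positions were seen, it was in 4 of 10 genes and in 4.74% of all. Of the 540 genes with TATAAA at 20 to 40 bases, 23.7% had a TSS peak. With TATAAA at 20 to 40 bases and TGACTCA anywhere in the promoter window, 9 of 41 genes (22%) had a TSS peak. Of 38 protein-coding genes with both in the 120 bases, 7 (18.4%) had a TSS peak. That class holds Mmp3, Mmp10 and Mmp13, whose positions had been seen when the range was set.

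Base composition separated the genes in a similar way, with an exception. The promoter windows of Mmp3, Mmp10 and Mmp13 had 40%, 39% and 43.7% GC and that of Mmp9 54.3%, with observed to expected CpG ratios of 0.08, 0.18, 0.07 and 0.23. Those of Mmp14, Adamts1, Timp1, Timp2 and Timp3 had 55% to 64.7% GC and CpG ratios of 0.38 to 0.71. Mmp2 had a TSS peak and 58.7% GC but a CpG ratio of only 0.20, below that of Mmp9. Over all protein-coding genes, the median CpG ratio was 0.77 with a TSS peak and 0.24 without. The letters GGGCGG were in 6 of 10 genes (45.6% of all), AGGAAG in 6 (34.3%), TGTGGT in 3 (15%), GGAATG in 2 (13%) and TGACGTCA in 0 (2.48%).

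Genes of the same pathways outside the 10 were read in the same way. A TSS peak was found for 28 of 55 of them (50.9%), near the share of all protein-coding genes. The share varied by family. Of 17 other matrix metalloproteinase genes 5 had one, with the highest folds at Mmp24 (7.62) and Mmp28 (5.94). Of the 12 without one, 7 lie in the chromosome 9 cluster, among them Mmp1a, which is not annotated as protein-coding. Of 18 other ADAMTS genes 8 had one, led by Adamts7 (10.6) and Adamts6 (9.79). Of the other inhibitors, Reck, a membrane-anchored inhibitor, had a TSS peak with a fold of 11.3, and Timp4 had none within 15814 bp. In plasminogen activation, 5 of 7 genes had one, led by the urokinase receptor Plaur (8) and the protease Plat (7.68). Of the ADAM sheddases 6 of 7 had one, led by Adam9 (14.1) and Adam17 (13.3), both above all 6 genes described here. Lrp1 (9.51), an endocytic receptor that clears proteases, and Bsg (8.66), a surface glycoprotein known as an inducer of metalloproteinases, led the remaining 4 genes, of which 3 had a TSS peak.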

How the data were processed

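The authors deposited peaks of 1 parental NIH-3T3 library, called on whole fragments with MACS2 2.1.1.20160309 after alignment to mm10 with STAR 2.5.3a, both versions per the submitters' processing notes, and removal of duplicates with Picard. No shift for the Tn5 cut is described. Besides a score, each deposited peak carries its fold enrichment (a ratio) and the −log10 of its p and q. Fragments and expected pileup at the summit were solved from the fold and −log10 p, and 63454 of 63456 came out whole within 0.02. The number of reads is not given in the list, and enrichment is relative to the local expected pileup. Coordinates are mm10, counted from 1. Genes were taken from GENCODE M21, and promoter sequences from RefSeq, whose promoter table matched 8 of 10 genes, without Mmp2 and Mmp9. Intervals are exact binomial (95%) and cover counting error only. Calculations used Python 3.11.15, NumPy 2.4.6, SciPy 1.17.1, pandas 2.3.3 and matplotlib 3.10.9. The solving step was tested on simulated data.

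No p-value was computed. Members, gene lists and motifs were chosen with earlier results of these data known. Named were the 10 genes, their TSS peaks, the strongest 2 peaks of the gene body and of the flanks, peaks with TGACTCA in the gene, genes whose start shares a peak, and the 2 highest folds per further group. Further peaks were named after their values were seen. Alternatives were stricter peak thresholds and other distances, windows and motifs.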

Additional observations from a re-analysis of the deposited data

How the results depend on the processing

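Of the alternative values, 34 stayed within 1.5 times the reported count or within the 95% interval of the reported share or median, and 9 moved. The 34 include the 6 genes with a TSS peak under every setting tried. With a fold of at least 5, 36 peaks remained in the windows, the median fold of distal peaks was 7.75 and the covered share 2.79%. The covered share was 3.44% at a q of 1e-05, 4.47% with 10 kb and 2.88% with 50 kb to either side. The share of distal peaks with TGACTCA was 7.89% within 25 bases of the summit (13.5% of all distal peaks), inside the wide interval of the reported 15.8%. It was 34.2% within 150 bases of the summit and 42.1% in whole peaks, where all distal peaks gave 39.8% and 40.8%. TATAAA anywhere in 120 bases was in 4 genes. No paired analysis was possible because the data are a single library. Depth limits the weak peaks, since the lowest summit of the list had 10 fragments, and accessibility below that is not seen.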

Other observations

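The strongest peak of the chromosome 9 metalloproteinase cluster (fold 15.4, 61 fragments) lay 322.9 kb from the start of Mmp13. It had no TGACTCA in its summit window, whereas the weakest of the 3 peaks, in Mmp27 with 12 fragments, had 1 at 46 bases from the summit, where it ended 4 bases outside the called peak. The protease gene Fap, a marker of activated fibroblasts, had no TSS peak.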
